A study of Mus musculus with 16 samples.

Results

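Glutamine, proline and cysteine metabolism was followed through 9 enzyme genes in macrophages activated with or without a γ-secretase inhibitor (GSI): Glul, Glud1, Got1, Gpt2, Aldh18a1, Pycr1, Oat, Cth and Cbs. The genes were chosen by symbol, as enzymes that make or use glutamine, glutamate, proline and cysteine. All 9 were found among the 47069 genes of the count table, and 8 of them passed the filter on low counts as did 13211 genes of the table in all. The cells were bone marrow-derived macrophages (BMMs) from C57BL/6 mice aged 8 to 10 weeks, harvested on day 7 of culture in L929-conditioned medium and primed overnight with IFNγ (10 ng/mL). Both groups were activated for 1 hr with Salmonella LPS (100 ng/mL) and immune complexes (ICs) of ovalbumin with rabbit IgG. One group received the GSI DAPT (25 μM) and the other its vehicle, DMSO (0.01%). Per the methods, both were incubated with the cells overnight before activation, but a shorter pretreatment is given for other experiments and the labels give no duration, so the length of exposure is uncertain. Total RNA was extracted and made into libraries with a stranded mRNA kit. RNA-seq gave 2 replicates per group, each with 4 columns of counts. No label says what the 4 columns are, and because they differed by no more than sampling noise they were taken as repeat runs of 1 library and summed, so n = 2 per group rests on that reading. No source states whether the replicates came from separate mice or cultures, or whether mice were pooled, so p-values measure only the spread between these 4 libraries, which may be technical. All libraries came from activated cells, so each difference is between GSI and DMSO in activated cells.

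γ-Secretase cleaves Notch receptors and many other membrane proteins, and DAPT blocks that cleavage. Glutamate stands at the centre of the pathways examined: it is released from glutamine, returned to glutamine by glutamine synthetase, and exchanges its amino group with other amino acids through aminotransferases. Proline is built from glutamate through pyrroline-5-carboxylate, which can also come from ornithine, whereas cysteine is built from homocysteine and serine through cystathionine and feeds glutathione synthesis. In macrophages, arginine, glutamine and cystine supply are known to shape the inflammatory response, and the transcription factor ATF4 is known to induce many amino acid enzymes and carriers when amino acids run short or the endoplasmic reticulum is stressed.

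Depth ranged from 42694655 counts (DMSO replicate 1) to 56932059 counts (DMSO replicate 2), with both GSI libraries between them at 48483661 and 49511733. Levels are given as CPM, the counts of a gene per 1000000 counts of the TMM-adjusted library size. In these units 3 counts, taken as the floor of detection, equal 0.0529 to 0.0697 CPM. That floor and these depths cover counting error only. Mitochondrial transcripts took 0.488% and 0.413% of the counts with DMSO and 0.372% and 0.335% with GSI, and the 10 most abundant genes took 7.24% and 7.41% against 8.41% and 8.37%. Whether these shares play a part in the changes below was not tested.

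Under GSI, 3 of the enzymes rose and 2 fell. Cth, the cysteine-forming enzyme cystathionine γ-lyase, rose 2.59-fold, Gpt2, the mitochondrial alanine aminotransferase, 1.79-fold, and Aldh18a1, which commits glutamate to proline synthesis, 1.68-fold. Glul, glutamine synthetase, fell to 0.683 of its DMSO level and Glud1, glutamate dehydrogenase, to 0.811. Pycr1, Got1 and Oat did not pass the test, and Cbs was at or under the floor in every library. A gene passed when its false discovery rate (FDR), given by the quasi-likelihood test of edgeR and adjusted by Benjamini-Hochberg over all 13211 tested genes, was under 0.05. By that test 40.8% of all genes passed, 19.0% higher and 21.9% lower with GSI, against 5 of the 8 tested enzymes, or 62.5%, with 3 higher and 2 lower. With a further requirement of an absolute log2 fold change above 1.5, 2.91% of all genes passed, and none of the enzymes did by edgeR at the FDR, by edgeR at an unadjusted p under 0.05, or by DESeq2. The 2 groups did not overlap in CPM for 7 of the 8 tested enzymes, beside 70.6% of all tested genes. The median log2 fold change was 0.43 over the 8 enzymes and 0.01 over all tested genes. The enzymes were chosen with earlier results of these data known, so these shares and medians only describe the list.

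**Figure D1:**
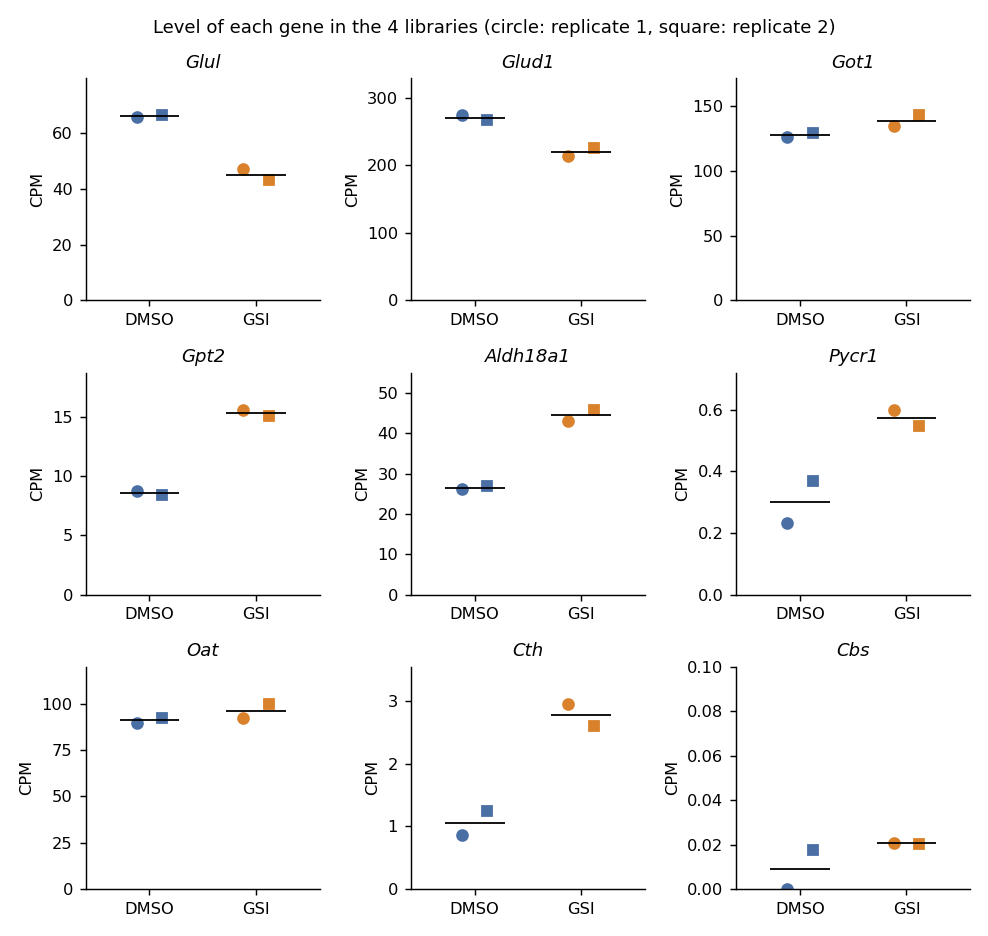
Level of each of the 9 enzymes in CPM (vertical axes, each starting at 0) in the DMSO and GSI libraries, with circles for replicate 1, squares for replicate 2 and a line at the mean of each group. Both GSI libraries lay above both DMSO libraries for Got1, Gpt2, Aldh18a1, Pycr1 and Cth and below them for Glul and Glud1, whereas Oat overlapped and Cbs had at most 1 count in any library.

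Among the enzymes that join glutamine and glutamate to central metabolism, Glul and Glud1 fell. Glul (ENSMUSG00000026473, GRCm38 chromosome 1, 153899944 to 153909723, plus strand) makes glutamine from glutamate and ammonia. It had 65.6 and 66.3 CPM in DMSO replicates 1 and 2, and 46.9 and 43.1 CPM in GSI replicates 1 and 2. Both GSI libraries lay well below both DMSO libraries, and the DMSO libraries were nearly equal. The log2 fold change was -0.55 (SE 0.0739, 95% interval -0.70 to -0.40, edgeR FDR = 5.18e-06). Glul shares 116 exonic bases with Teddm2 on the opposite strand and 93 with Mir8114 on its own strand, but these genes had at most 5 counts and 1 count in any library. A processed copy, Glns-ps1, had at most 3 counts in any library.

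Glud1 (ENSMUSG00000021794, chromosome 14, 34310727 to 34345265, plus strand) encodes the mitochondrial enzyme that interconverts glutamate and 2-oxoglutarate, releasing or fixing ammonia. It was measured at 274 and 267 CPM with DMSO and at 214 and 225 CPM with GSI, again with no overlap. The decrease was small but exceeded the spread between replicates, with a log2 fold change of -0.30 (SE 0.0697, 95% interval -0.45 to -0.16, edgeR FDR = 0.00161). Its pseudogene Glud-ps had at most 21 counts in any library, beside 10322 to 15143 counts of Glud1.

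The aspartate and alanine aminotransferases among the enzymes, Got1 and Gpt2, differed in size of change. Got1 (ENSMUSG00000025190, chromosome 19, 43499752 to 43524605, minus strand) encodes the cytosolic aspartate aminotransferase of the malate-aspartate shuttle. It had 126 and 129 CPM with DMSO and 135 and 142 CPM with GSI. All of its GSI values exceeded its DMSO values, but the log2 fold change of 0.12 did not pass the test (95% interval -0.03 to 0.26, edgeR FDR = 0.181). Gpt2 (ENSMUSG00000031700, chromosome 8, 85492576 to 85527560, plus strand), which makes alanine from pyruvate and glutamate in mitochondria, had 8.76 and 8.37 CPM with DMSO and 15.6 and 15.1 CPM with GSI. The gap between the groups was many times the gap within either of them. Gpt2 rose by a log2 fold change of 0.84 (SE 0.0958, 95% interval 0.64 to 1.04, edgeR FDR = 6.08e-07).

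In the proline branch the enzyme that opens the route from glutamate rose. Aldh18a1 (ENSMUSG00000025007, chromosome 19, 40550257 to 40588463, minus strand) encodes pyrroline-5-carboxylate synthase, which turns glutamate into the precursor of both proline and ornithine. It had 26.1 and 26.8 CPM with DMSO and 42.9 and 45.8 CPM with GSI. The replicates of each group lay close together and far from the other group, and the log2 fold change was 0.75 (SE 0.0769, 95% interval 0.59 to 0.91, edgeR FDR = 1.65e-07). Oat (ENSMUSG00000030934, chromosome 7, 132557478 to 132576398, minus strand), the ornithine aminotransferase that joins ornithine to pyrroline-5-carboxylate, had 89.97 and 92.7 CPM with DMSO and 92.5 and 100.1 CPM with GSI. The lower GSI value lay between the DMSO values, and the log2 fold change of 0.08 did not pass (95% interval -0.07 to 0.23, edgeR FDR = 0.418).

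Pycr1 (ENSMUSG00000025140, chromosome 11, 120635712 to 120643769, minus strand) encodes a mitochondrial reductase that completes proline synthesis from pyrroline-5-carboxylate. Its counts were low, at 10 and 21 with DMSO and 29 and 27 with GSI. These were 0.232 and 0.370 CPM against 0.600 and 0.547 CPM, so the groups did not overlap, yet the DMSO replicates differed widely between themselves. The log2 fold change was 0.88, with a wide 95% interval from 0.13 to 1.64, and did not pass the test (SE 0.360, edgeR FDR = 0.0554, unadjusted p = 0.0232 in the same edgeR fit). Its FDR ranged from 0.0336 to 0.319 over the 10 alternative analyses that tested it and was under 0.05 in 3 of them.

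In the cysteine branch only the enzyme that forms cysteine was measurable. Cth (ENSMUSG00000028179, chromosome 3, 157894248 to 157925077, minus strand) cleaves cystathionine into cysteine, ammonia and 2-oxobutyrate. It had 37 and 71 counts with DMSO and 143 and 129 with GSI, or 0.860 and 1.25 CPM against 2.96 and 2.61 CPM. Both GSI values were well above the higher DMSO value. Its log2 fold change of 1.37 was the largest of the 8 tested enzymes (SE 0.203, 95% interval 0.95 to 1.79, edgeR FDR = 1.68e-05) and ranged from 1.15 to 1.69 when each library was left out in turn. Cbs (ENSMUSG00000024039, chromosome 17, 31608894 to 31637238, minus strand), which makes cystathionine from homocysteine and serine, had 0 and 1 counts with DMSO and 1 and 1 with GSI. These counts are within the floor of 3 counts, so any difference in Cbs was not detectable at this depth and no fold is given. In bulk RNA, a lower level of any of these genes cannot be told apart from fewer cells expressing it.

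**Figure D2:**
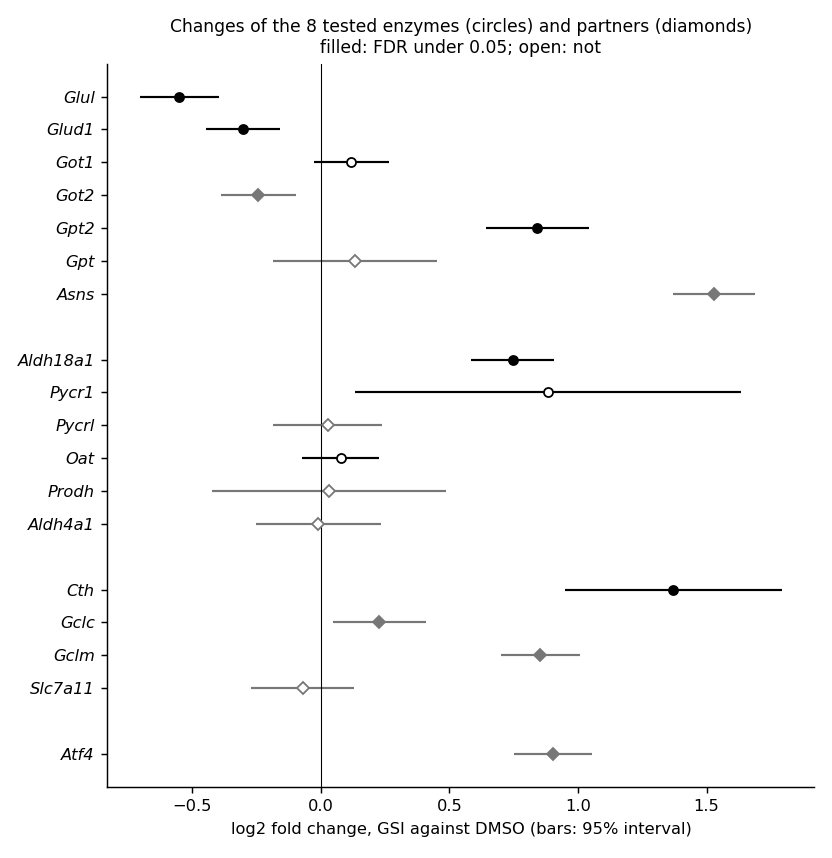
Log2 fold change between GSI and DMSO (horizontal axis) of the 8 tested enzymes (black circles) and of 10 partners (grey diamonds), with bars for the 95% interval of each and filled symbols for an FDR under 0.05. Among the genes plotted, Asns and Cth lay farthest to the right and Glul farthest to the left.

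Upstream sequences are shown because Aldh18a1 and Gpt2 rose and because Got1 and Pycr1 share a sequence element. The 250 bases upstream of the RefSeq start (GRCm38.p6), matched by symbol for 8 of the 9 enzymes (all but Cth), were searched on both strands for 3 motifs. These were TTGCATCA, a composite element bound by C/EBP and ATF4 proteins, the E-box CACGTG, and TGGGAA, the core of sites bound by RBPJ, the DNA-binding partner of Notch. No match overlapped another in these windows. TTGCATCA was found in 2 of the 8 windows, at -102 to -95 from the start of Got1 and, as its reverse complement TGATGCAA, at -103 to -96 of Pycr1, beside 0.791% of 32851 upstream windows of the same length. CACGTG was found in Aldh18a1 (-59 to -54) and Cbs (-229 to -224), beside 6.02% of windows, and TGGGAA only in Aldh18a1 (-151 to -146), beside 21.6%. The windows of Glul, Glud1, Gpt2 and Oat held none of these letters. Neither Got1 nor Pycr1 passed the test. Aldh18a1 and Gpt2, which rose, held no TTGCATCA, and Cth, which also rose, had no window to search. A match is a description of the sequence and does not show that a factor binds. The windows of 4 genes are printed 5′ to 3′ on the gene's strand, each ending at the base before the start, with the matched letters in capitals: Got1 (chr19:43524606-43524855, minus strand), Pycr1 (chr11:120643749-120643998, minus strand, of which the last 21 bases lie inside the annotated gene of GENCODE), Aldh18a1 (chr19:40588464-40588713, minus strand) and Gpt2 (chr8:85492326-85492575, plus strand, which also rose and has no match).
Got1: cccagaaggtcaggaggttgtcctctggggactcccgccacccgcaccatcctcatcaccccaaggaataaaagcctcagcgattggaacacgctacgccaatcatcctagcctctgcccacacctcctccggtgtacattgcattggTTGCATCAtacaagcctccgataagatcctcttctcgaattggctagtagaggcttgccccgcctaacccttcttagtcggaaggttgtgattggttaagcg
Pycr1: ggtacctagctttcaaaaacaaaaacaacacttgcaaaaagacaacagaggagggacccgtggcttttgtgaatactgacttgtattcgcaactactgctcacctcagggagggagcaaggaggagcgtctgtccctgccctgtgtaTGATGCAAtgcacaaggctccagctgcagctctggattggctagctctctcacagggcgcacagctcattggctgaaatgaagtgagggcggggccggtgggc
Aldh18a1: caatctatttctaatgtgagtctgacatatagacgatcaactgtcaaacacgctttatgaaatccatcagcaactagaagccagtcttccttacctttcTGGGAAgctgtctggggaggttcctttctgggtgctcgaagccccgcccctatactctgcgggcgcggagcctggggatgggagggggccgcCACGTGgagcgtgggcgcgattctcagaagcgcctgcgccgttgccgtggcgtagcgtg
Gpt2: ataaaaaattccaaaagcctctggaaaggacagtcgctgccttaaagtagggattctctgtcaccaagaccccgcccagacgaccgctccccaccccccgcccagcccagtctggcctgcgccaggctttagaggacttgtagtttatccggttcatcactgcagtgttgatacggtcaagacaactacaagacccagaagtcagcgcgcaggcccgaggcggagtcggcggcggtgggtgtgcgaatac

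Per kilobase of exon, the mean levels of the tested enzymes with DMSO ran from 0.0766 CPM per kb for Pycr1 to 64.3 for Glud1. With DMSO the order in CPM per kb, as mean ± SD of n = 2, was Glud1 (64.3 ± 1.22), Got1 (50.2 ± 0.729), Oat (38.7 ± 0.805), Glul (19.8 ± 0.149), Aldh18a1 (6.50 ± 0.130), Gpt2 (1.52 ± 0.0489), Cth (0.378 ± 0.0992), Pycr1 (0.0766 ± 0.0247) and Cbs (0.00118). With GSI the levels per kb were 54.5 ± 2.23 for Got1, 52.1 ± 1.96 for Glud1, 40.8 ± 2.26 for Oat, 13.5 ± 0.806 for Glul, 10.9 ± 0.500 for Aldh18a1, 2.72 ± 0.0615 for Gpt2, 0.998 ± 0.0877 for Cth, 0.146 ± 0.00956 for Pycr1 and 0.00273 for Cbs. Among the tested enzymes, neighbours in this order had libraries that did not overlap, except Got1 and Glud1 with GSI, whose means differed by a ratio of 1.05. Cbs is placed last on counts within the floor, so its values are not measured levels. Glud1 exceeded Got1 by a ratio of 1.28 with DMSO. Glul stood above Aldh18a1 by a ratio of 3.05 with DMSO and of 1.24 with GSI.

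**Figure D3:**
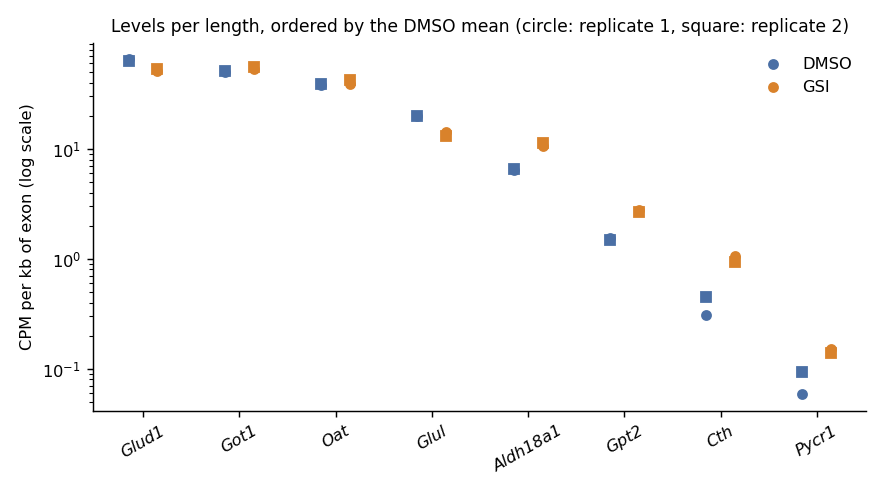
Level of the 8 tested enzymes per kilobase of exon (CPM per kb, log axis) in each library, ordered by the mean with DMSO, with circles for replicate 1 and squares for replicate 2; Cbs is left out. The order stayed the same with GSI except that Got1 and Glud1, whose libraries then overlapped, changed places.

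Enzymes that share a reaction or a product were compared by their shares of level per length. Aldh18a1 took 14.4% and 14.4% of the summed level of Aldh18a1 and Oat, the enzymes that supply pyrroline-5-carboxylate from glutamate and from ornithine, with DMSO and 21.2% and 21.0% with GSI. Gpt2 took 61.7% and 62.0% of the 2 alanine aminotransferases with DMSO and 73.3% and 71.9% with GSI. Its cytosolic counterpart Gpt was at 2.84, 2.68, 2.96 and 3.08 CPM in DMSO 1, DMSO 2, GSI 1 and GSI 2, a log2 fold change of 0.13 that did not pass (edgeR FDR = 0.516). Of the 2 aspartate aminotransferases, Got1 took 69.7% and 70.5% with DMSO and 74.8% and 75.4% with GSI. Mitochondrial Got2 fell (104, 102, 86.2 and 88.4 CPM, log2 fold change -0.24, edgeR FDR = 0.00819), a call lost without DMSO replicate 1 (FDR = 0.0578). Pycrl, another pyrroline-5-carboxylate reductase, averaged 7.22 CPM per kb with DMSO and 7.36 CPM per kb with GSI, beside 0.0766 and 0.146 for Pycr1, and did not pass the test (log2 fold change 0.03, 95% interval -0.19 to 0.24, edgeR FDR = 0.860).

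Other genes of the same pathways were counted from lists that were drawn up from general knowledge, with earlier results of these data known. Of 15 tested glutamine and glutamate enzymes (19 listed), 4 passed, 2 higher and 2 lower, or 26.7%, with a median log2 fold change of 0.01. Asns, which makes asparagine with glutamine as its nitrogen donor, rose from 59.2 and 52.8 CPM to 164 and 159 CPM (log2 fold change 1.53, edgeR FDR = 6.46e-12), beside 1.37 for Cth. Nit2, an amidase, rose (0.35, edgeR FDR = 0.00531), and Cad, which uses glutamine to begin pyrimidine synthesis, fell (-0.32, edgeR FDR = 0.0172). The call of Cad was lost in DESeq2 (adjusted p = 0.0854), without DMSO replicate 2 (FDR = 0.0868) and without GSI replicate 1 (FDR = 0.144). Of 8 tested proline and ornithine enzymes (10 listed), 2 passed, 1 higher and 1 lower, or 25%, with a median of 0.03. Eprs, the glutamyl-prolyl-tRNA synthetase, rose (0.33, edgeR FDR = 0.000705), whereas Odc1, which makes putrescine from ornithine, fell (-0.40, edgeR FDR = 0.00057). The proline-degrading Prodh (0.03) and Aldh4a1 (-0.01) did not pass.

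Of 17 tested methionine, cysteine and glutathione enzymes (19 listed), 8 passed, 5 higher and 3 lower, or 47.1%, with a median log2 fold change of 0.08. That count was 4 without DMSO replicate 2 and 5 without GSI replicate 1. Both subunits of glutamate-cysteine ligase, which starts glutathione synthesis from cysteine, rose. Its modifier subunit Gclm was at 35.1 and 34.9 CPM with DMSO and 64.9 and 61.5 CPM with GSI (0.85, edgeR FDR = 1.38e-08). Its catalytic subunit Gclc was at 19.1 and 18.8 CPM with DMSO and 23.5 and 21.0 CPM with GSI (0.23, edgeR FDR = 0.0405), a call lost in DESeq2 (adjusted p = 0.137) and without DMSO replicate 1, DMSO replicate 2 or GSI replicate 1 (FDR = 0.0998, 0.152 and 0.291). Cars, the cysteinyl-tRNA synthetase, rose (0.75, edgeR FDR = 4.04e-08). Mtr, the methionine synthase that consumes homocysteine, fell (-0.71, edgeR FDR = 1.72e-06), as did Csad of taurine synthesis (-0.44, edgeR FDR = 0.00543). Without GSI replicate 1 the log2 fold change of Csad was -0.27, and its call was lost. Cdo1, which oxidises cysteine, had 3 to 12 counts in the libraries and was not tested.

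Of 17 tested carriers of these amino acids (18 listed), 9 passed, 5 higher and 4 lower, or 52.9%, with a median log2 fold change of -0.10. Slc7a5, the light chain of a carrier of large neutral amino acids, rose from 11.3 and 11.3 CPM to 34.3 and 30.5 CPM (1.52, edgeR FDR = 7.52e-11). Slc1a4, a carrier of small neutral amino acids, rose by a log2 fold change of 1.39 (edgeR FDR = 6.53e-09), Slc38a7, a glutamine carrier, by 0.70 (edgeR FDR = 2.26e-07), and Slc25a22, the mitochondrial glutamate carrier, by 0.44 (edgeR FDR = 6.52e-05). Slc7a11, the cystine-importing subunit, was at 27.8, 33.8, 26.9 and 31.8 CPM and did not pass (-0.07, 95% interval -0.27 to 0.13, edgeR FDR = 0.589).

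Regulators of the integrated stress response, the pathway that acts through ATF4, were counted in the same way. Of 15 listed and tested, 8 passed, 7 higher and 1 lower, or 53.3%, with a median log2 fold change of 0.24. Atf4 was at 239 and 253 CPM with DMSO and 476 and 444 CPM with GSI (0.90, edgeR FDR = 5.54e-09). Ddit3, which encodes the stress factor CHOP, rose by a log2 fold change of 1.19 (edgeR FDR = 7.36e-10), Trib3 by 2.09 (edgeR FDR = 2.24e-11), Chac1, which degrades glutathione, by 2.18 (edgeR FDR = 1.24e-09) and Atf5 by 1.31 (edgeR FDR = 1.27e-09). The genes whose CPM pattern over the 4 libraries lay nearest to Cth, among 7581 genes averaging at least 10 CPM, were Atf5 (distance 0.144 in centred log2 CPM), Adra1a (0.213) and C77080 (0.229). Their log2 fold changes were 1.31, 1.30 and 1.39, beside 1.37 for Cth. A distance over 4 libraries in 2 groups depends on the change between the groups, and shared regulation was not tested. By the same measure, Src (0.204), Ms4a14 (0.224) and Il15ra (0.243) lay nearest to Pycr1. With 10 to 29 counts per library and a prior count of 2 in the log2 CPM, the pattern of Pycr1 is imprecise. The Notch target Hes1 had 1 to 5 counts in every library, and neither it nor Hey1 and Nrarp passed the filter, so the level of these 3 targets gives no check of the inhibitor here.

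**Figure D4:**
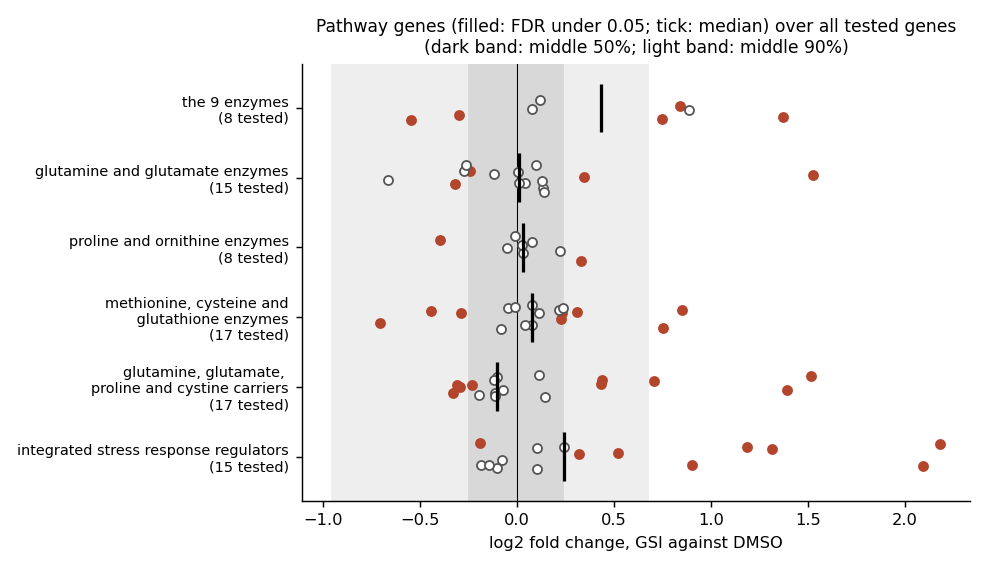
Log2 fold change between GSI and DMSO (horizontal axis) of each tested gene in the 9-enzyme list and in the 5 pathway lists, with filled points for an FDR under 0.05 and a tick at the median of each list, over bands for the middle 50% (-0.25 to 0.24) and middle 90% (-0.96 to 0.68) of all tested genes. The enzyme list had the highest median, 0.43, and the genes farthest to the right were the stress response regulators Chac1 and Trib3. The enzymes and the lists were chosen with earlier results of these data known, so their order is descriptive only.

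The labelled cell type was checked against marker genes. All 8 macrophage markers were tested and abundant, with a summed level of 10513 and 10809 CPM with DMSO and 8474 and 9253 CPM with GSI. Of these, 6 fell, among them Csf1r (-0.56, edgeR FDR = 3.43e-05), and 1 rose, Mertk (0.64, edgeR FDR = 1.62e-06). Dendritic cell markers summed to 186 and 179 CPM with DMSO and to 113 and 115 CPM with GSI, almost all from Clec9a, which fell from 181 and 174 CPM to 109 and 111 CPM (-0.69, edgeR FDR = 1.2e-07). Xcr1 also fell. Of the other 3 of these 5 markers, Cd209a was at 0 and Flt3 at no more than 2 counts in every library, both within the floor of 3 counts, and Zbtb46 had 10 to 19 counts and did not pass (-0.43, edgeR FDR = 0.477). Summed levels of the other lists reached at most 0.538 CPM for B cells, 0.506 for T cells, 1.29 for neutrophils, 0.162 for fibroblasts, 0.123 for erythroid cells and 1.12 for mast cells and basophils, with Cd5 and Kit higher under GSI at these low levels. The part of the macrophage and dendritic markers in the changes of the enzymes was not tested.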

How the data were processed

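RNA from 4 libraries (2 with DMSO, 2 with GSI) was made into stranded cDNA libraries with an mRNA kit and sequenced on an Illumina instrument. The authors trimmed adapters with Trimmomatic, aligned with STAR (version 2.5.0a in the submitters' processing notes) to mm10 (the notes also name mm9) and counted reads per gene with HTSeq, whose mode and strand setting are not given in the sources used here. The deposited table holds raw counts for 16 columns, 4 per replicate, labelled with Ensembl identifiers. The 4 columns of a replicate differed by no more than sampling noise, were taken from this as runs of 1 library, and were summed. Depths are in the report, and low counts such as those of Pycr1 limit precision.

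TMM factors, filterByExpr and edgeR's quasi-likelihood test (edgeR 4.0.16, R 4.3.3) compared GSI with DMSO without a block. Benjamini-Hochberg adjustment covered all 13211 tested genes, and an FDR under 0.05 was taken as the threshold. Procedures were tested on simulated data. With 2 libraries per group, the smallest 2-sided exact permutation p is 0.333, so no single-gene permutation test was made. Gene positions and exon lengths came from GENCODE M21 (GRCm38), and upstream sequences from RefSeq (GRCm38.p6).

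Besides the members, the text names, in each list, the 4 genes with the largest absolute log2 fold change among those with an FDR under 0.05 and a mean of at least 1 CPM, a fixed set of paralogs and partners (of which a few are not reported here, nor counted in the lists), and the 3 genes nearest in pattern to each of the 2 members with the largest absolute log2 fold change, whether or not they passed (Cth, which passed, and Pycr1, which did not). Marker and target genes named beyond this rule (Csf1r, Mertk, Clec9a, Xcr1, Cd209a, Flt3, Zbtb46, Cd5, Kit, Hey1, Nrarp) were chosen after their values were seen. The members and lists were chosen with earlier results of these data known. Alternatives were DESeq2 (1.42.0), RLE factors, library totals alone, a filter of at least 10 counts per library, no filter on counts, a block for replicate number, a fit that kept the 16 runs apart, the omission of each library, and for levels another length or scaling.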

Additional observations from a re-analysis of the deposited data

How the results depend on the processing

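All 87 alternative analyses of the 8 tested enzymes kept the direction of the log2 fold change, and 82 also kept its side of the threshold. Pycr1 passed with no filter (0.89, FDR = 0.0403), with at least 10 counts in every library (0.88, FDR = 0.0386) and with the replicate block (0.89, FDR = 0.0336). With the 16 runs as separate samples, which called 7582 genes in place of 5392 over all genes, Got1 (0.12, FDR = 0.00028) and Oat (0.0793, FDR = 0.0455) passed, Pycr1 was not tested, and 8 glutamine and glutamate enzymes passed in place of 4. Leaving out 1 library, with a lone library assumed to vary like the other group, gave 4 to 7 methionine, cysteine and glutathione enzymes in place of 8. Of 275 alternatives for named pathway genes, 258 kept direction and call. The 8 that turned direction were of genes that passed in no analysis, and over the fits leaving out 1 library their log2 fold changes ran from -0.0272 to 0.0787 for Pycrl, -0.18 to 0.22 for Prodh, -0.0584 to 0.0310 for Aldh4a1 and -0.20 to 0.0748 for Slc7a11. The labels number the replicates, but 2 pairs cannot show that the numbers pair them (r = 0.155 over 13211 genes between the deviations of DMSO 1 and GSI 1). The replicate block moved calls over all genes from 5392 to 6444 and, beyond Pycr1, changed no enzyme's call. DESeq2 called 4048 genes of 13721. Levels per length were higher on the longest annotated transcript, with every enzyme at the same rank. That transcript had 3639 bases in place of 5643 exon bases for Gpt2, and 1815 in place of 2791 for Cth. Low counts limit Pycr1 and Cth, and Cbs could not be measured.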
